A study of Mus musculus with 15 samples.

Results

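Lipid droplet and triglyceride genes were followed in the hearts of mouse pups with a Nat10 knockout. The set held 10 genes chosen by name, of the 54532 in the table: Dgat1, Dgat2, Pnpla2, G0s2, Plin2, Plin3, Plin4, Plin5, Cidea and Cidec. Of these, 9 passed the filter on low values, as did 15321 genes in all, and Cidec did not. They are named by their known roles, and were picked with earlier results of these data known.

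Heart muscle burns fatty acids and holds a small, fast-turning store of them as triglyceride in lipid droplets. The DGAT enzymes add the last fatty acid to diacylglycerol, perilipins coat the droplet and control access of lipases to it, and adipose triglyceride lipase, the product of Pnpla2, starts its breakdown. Perilipin 5 is abundant in oxidative tissues and sits between droplets and mitochondria, and CIDE proteins join droplets and enlarge them.

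Whole-heart poly-A RNA was sequenced in 5 groups of 3 libraries, which the labels call independent biological replicates. The control group, ff_GFP, was Nat10flox/flox pups given a virus that carried green fluorescent protein (GFP). The other 4 groups were Nat10-CKO pups, CKO standing for conditional knockout, given the virus with GFP (CKO_GFP), NAT10 (CKO_NAT10), NAT10 with the substitution G641E (CKO_G641E) or NAT10 with K209A (CKO_K209A). All 5 groups received adeno-associated virus serotype 9 (AAV9) under the skin on day 1 after birth, in equal amounts, with a cardiac troponin T promoter ahead of the transgene, and hearts were taken 12 to 14 days after the injection. NAT10 is an RNA cytidine acetyltransferase, and the study's title asks about its RNA binding and its enzyme activity. The labels neither assign a substitution to an activity nor say which Cre made the knockout.

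Levels are given in FPKM, fragments scaled by gene length and by a library size of the authors' own, with the standard deviation (SD) over the 3 libraries of a group. Differences are log2 of (FPKM + 0.5) with their standard error (SE), tested with limma over all 15321 genes. A gene was called where the Benjamini-Hochberg adjusted p lay under 0.05, and "rose" and "fell" are kept for called genes. Each library held between 13218352 and 15912700 reads in genes. Nat10 itself measured 4.09 ± 0.207 FPKM in ff_GFP and 3.48 ± 0.0498 in CKO_GFP, a difference of -0.21 (limma adjusted p = 0.165), so a loss was not detectable between these groups. It measured 2.62 ± 0.497 FPKM in CKO_NAT10 and 2.36 ± 0.199 in CKO_G641E, both lower than ff_GFP (-0.57, limma adjusted p = 0.0202, and -0.69, 0.00860) and than CKO_GFP (0.0262 and 0.00599), and 3.54 ± 0.291 in CKO_K209A (-0.19 against ff_GFP, 0.195). Replicate 1 of CKO_GFP stood apart from the rest of its group, at 43.8 on the second principal component of all tested genes, where the other CKO_GFP libraries lay at -3.43 and -9.07. That component held 9.95% of the variance. CKO_NAT10 replicate 2 (23.0 against -5.40 and -5.87) and CKO_G641E replicate 2 (27.4 against 7.03 and -0.47) also lay apart on it. Values of the 9 tested members without CKO_GFP replicate 1 are given where that library decides a call.

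Whole heart mixes cell types, and fewer cells of a type and less RNA per cell cannot be told apart. Summed FPKM of 5 heart muscle markers ran from 17812 to 19620 in ff_GFP and from 6809 to 10984 in CKO_GFP. They ran from 13228 to 16512 with NAT10, from 14993 to 17479 with G641E and from 5834 to 8066 with K209A. The 5 fibroblast markers summed to between 279 and 318 FPKM in ff_GFP, between 475 and 652 in CKO_GFP, between 370 and 380 with NAT10, between 336 and 360 with G641E and between 555 and 590 with K209A. Col1a1 alone ran from 411 to 436 FPKM with K209A, so the sum mostly follows that gene. Lum went the other way, from 40.5 to 42.9 FPKM in ff_GFP and from 23.3 to 34.8 with K209A. In the knockout 4 of 5 heart muscle markers fell, among them Tnni3 (-0.95), Myh6 (-1.20) and Actc1 (-1.33), Ryr2 (-0.18) not being called, and 4 of 5 fibroblast markers rose, led by Col1a1 (1.24), Tcf21 (1.01) and Dcn (0.53), with Lum (0.03) not called. The 6 macrophage markers summed to between 66.2 and 94.5 FPKM in ff_GFP, between 102 and 139 in CKO_GFP and between 74.3 and 94.1 in CKO_K209A. In CKO_K209A Lyz2 alone ran from 50.0 to 68.9 FPKM, and Csf1r from 6.88 to 7.69, where ff_GFP had 11.1 to 12.7. In the knockout 3 of 6 rose, Cd68 (0.94), Trem2 (0.59) and Lyz2 (0.68). The Lyz2 call ended without CKO_GFP replicate 1 (0.56) or 2 (0.69), without ff_GFP replicate 1 (0.51) or 3 (0.67), and with quantile normalization (0.61). That of Trem2 ended with the 2 groups fitted alone. The 4 endothelial markers summed to between 238 and 245 FPKM in ff_GFP, between 176 and 215 in CKO_GFP and between 181 and 198 in CKO_K209A. In the knockout 3 of 4 fell, Tek (-0.27), Cdh5 (-0.41) and Kdr (-0.64). Pecam1, not called, ran from 44.0 to 49.6 FPKM in ff_GFP and from 48.3 to 55.8 in CKO_GFP. Without scaling between libraries Tek (-0.12), Cdh5 (-0.26) and Kdr (-0.49) all lost their calls, and with voom so did Tek (-0.13) and Cdh5 (-0.26). The part of these shifts in the results below was not tested. Fat cells are rich in several of the 10 genes. The 7 adipocyte markers summed to at most 0.354 FPKM in any library, with Retn and Lep at 0 in all 15.

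Plin4 and Plin5 are neighbours on chromosome 17, read from the same strand with 1797 bases between them, and Plin5 fell in the knockout whereas Plin4 did not, so the bases ahead of both starts are shown. The sequences are those of RefSeq on GRCm38.p6, on the minus strand and 5′ to 3′. They end where the annotated gene begins.
Plin4, chr17:56109804-56110032: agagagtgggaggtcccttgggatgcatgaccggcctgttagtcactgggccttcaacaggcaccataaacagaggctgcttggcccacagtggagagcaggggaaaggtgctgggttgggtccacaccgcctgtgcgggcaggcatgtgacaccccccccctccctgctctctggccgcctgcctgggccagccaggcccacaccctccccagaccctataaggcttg
Plin5, chr17:56117597-56117798: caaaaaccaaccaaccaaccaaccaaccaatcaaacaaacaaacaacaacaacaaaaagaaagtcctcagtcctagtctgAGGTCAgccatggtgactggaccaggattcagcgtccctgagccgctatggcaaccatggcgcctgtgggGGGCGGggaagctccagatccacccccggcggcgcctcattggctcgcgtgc
Capitals mark the letters AGGTCA, the core letters of the site bound by nuclear receptors such as the peroxisome proliferator-activated receptors (PPARs), and GGGCGG, the GC box. Both strands were searched over 250 bases ahead of the starts of the 7 members with a window in the RefSeq promoter set used. There were 9 windows, as Cidec and Plin5 each had 2. AGGTCA was present for Plin2 and Plin5, 2 of 7 members, and in 14.0% of 32851 promoter windows of the same length. GGGCGG was present for 4 of 7 (G0s2, Plin3, Plin5 and Pnpla2) and in 32.7% of windows. The E-box CACGTG (6.02% of windows) and 2 AGGTCA runs in the same direction with 1 base between them (0.0335%) were found for 0 of 7. The Plin4 window held none of these letters. A match is a run of letters and shows no binding.

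Dgat2, which encodes the acyltransferase that makes triglyceride mainly from newly made fatty acids, set the groups apart most widely. It lies at chr7:99153658-99182719 on the minus strand (ENSMUSG00000030747, GRCm38). Its 3 ff_GFP libraries read 97.3, 97.7 and 89.8 FPKM, and the CKO_GFP libraries 30.6, 18.2 and 25.1. In CKO_NAT10 the readings were 56.6, 63.1 and 73.6 FPKM and in CKO_G641E 77.1, 65.4 and 71.2. The CKO_K209A libraries read 5.68, 6.86 and 6.15 FPKM. Every CKO_K209A library lay below every CKO_GFP library, and every CKO_GFP library lay below those of the other 3 groups. The group means were 94.9 ± 4.46, 71.2 ± 5.87, 64.4 ± 8.57, 24.7 ± 6.20 and 6.23 ± 0.595 FPKM (SD, n = 3) for ff_GFP, CKO_G641E, CKO_NAT10, CKO_GFP and CKO_K209A. Along that order the neighbours that did not pass the test were ff_GFP and CKO_G641E (adjusted p = 0.204, libraries without overlap) and CKO_G641E and CKO_NAT10 (adjusted p = 0.964).

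Dgat1, at chr15:76502015-76511953 on the minus strand (ENSMUSG00000022555), encodes the other enzyme of that step, which is unrelated in sequence and known for re-esterifying fatty acids from outside the cell. Its group means kept within a narrower range. The control ff_GFP read 8.82, 10.3 and 10.1 FPKM and CKO_GFP 7.40, 9.498 and 7.94. With NAT10 it was 9.51, 10.1 and 10.01 FPKM, with G641E 11.5, 10.2 and 10.2, and with K209A 7.06, 7.32 and 7.84. The ff_GFP and CKO_GFP libraries overlapped, as did those of CKO_GFP and CKO_K209A. The ratio of Dgat2 to Dgat1 FPKM was 9.82 ± 1.09 in ff_GFP and 3.07 ± 1.11 in CKO_GFP (SD, n = 3, no test made). With NAT10 it was 6.51 ± 0.737, with G641E 6.69 ± 0.281 and with K209A 0.842 ± 0.0826 (SD, n = 3). Dgat2 was therefore the more abundant transcript per length in 4 groups, and Dgat1 in CKO_K209A, where the ratio ran from 0.785 to 0.936.

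Pnpla2, at chr7:141455198-141460743 on the plus strand (ENSMUSG00000025509), was the most abundant of the set per length, with a mean of 125 FPKM over 15 libraries, above 98.1% of tested genes. The control ff_GFP read 145, 148 and 141 FPKM and CKO_GFP 110, 149 and 149. Hearts given NAT10 read 117, 127 and 122 FPKM, those given G641E 140, 134 and 131, and those given K209A 85.7, 87.7 and 90.3. The CKO_K209A libraries lay below all 12 others, and CKO_GFP spanned the range of the remaining groups. G0s2, at chr1:193272161-193273217 on the minus strand (ENSMUSG00000009633), encodes the protein that inhibits this lipase. The libraries of ff_GFP read 30.3, 36.2 and 44.5 FPKM and those of CKO_GFP 15.6, 7.88 and 37.8. With NAT10 they read 27.1, 23.8 and 32.6 FPKM, with G641E 27.2, 26.8 and 38.4, and with K209A 14.5, 15.8 and 26.6. CKO_GFP replicate 3 lay inside the ff_GFP range and the other CKO_GFP libraries below it. The ratio of Pnpla2 to G0s2 was 4.02 ± 0.812 in ff_GFP and ran from 3.96 to 18.9 in CKO_GFP (SD, n = 3). G0s2 lies inside the span of Lamb3, which is on the other strand, but the annotated exons share 0 bases.

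Among the perilipins, Plin5, the form of oxidative tissues (chr17:56111601-56117596, minus strand, ENSMUSG00000011305), was highest in the control. It read 83.6, 81.6 and 81.8 FPKM in ff_GFP and 21.7, 32.3 and 42.1 in CKO_GFP. The readings were 52.3, 50.1 and 61.0 FPKM in CKO_NAT10, 71.5, 54.4 and 51.1 in CKO_G641E and 17.7, 25.3 and 22.9 in CKO_K209A. The ff_GFP libraries lay above all others, and the CKO_GFP and CKO_K209A libraries overlapped below the rest.

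Plin4, a perilipin best known from fat and striated muscle (chr17:56100591-56109803, minus strand, ENSMUSG00000002831), had another order of groups. The control ff_GFP read 23.3, 27.8 and 27.2 FPKM and CKO_GFP 21.1, 62.4 and 50.0. Hearts given NAT10 read 23.5, 24.0 and 23.8 FPKM, those given G641E 22.9, 22.9 and 21.3, and those given K209A 41.1, 43.3 and 32.6. CKO_GFP replicates 2 and 3 were the 2 highest of the 15 readings and replicate 1 the lowest, while all CKO_K209A libraries lay above ff_GFP, CKO_NAT10 and CKO_G641E. Plin4 shares 17 bases of annotated exon with Hdgfl2 on the other strand, and reads there may belong to either gene if strand was not used in counting.

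Plin3, the perilipin found in most tissues (chr17:56277476-56292873, minus strand, ENSMUSG00000024197), had means of 24.8 ± 2.20 FPKM for ff_GFP, 17.1 ± 3.24 for CKO_GFP, 21.7 ± 3.42 with NAT10, 24.1 ± 2.87 with G641E and 12.6 ± 1.19 with K209A (SD, n = 3). Plin2, the general droplet coat protein that is stable only when bound to droplets (chr4:86648386-86670060, minus strand, ENSMUSG00000028494), had the narrowest range of group means for its level among the perilipins, at 21.2 ± 1.08, 19.0 ± 1.53, 18.5 ± 2.13, 20.6 ± 1.94 and 15.6 ± 1.51 FPKM in the same order (SD, n = 3).

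The makeup of the perilipin transcripts differed between groups. Plin5 made up 53.3% ± 1.26 of the summed FPKM of the 4 perilipins in ff_GFP and 28.4% ± 3.70 in CKO_GFP, and 45.9% ± 1.74 with NAT10, 46.6% ± 3.41 with G641E and 24.5% ± 3.21 with K209A (SD, n = 3). Plin4 made up 16.9% ± 1.46, 37.8% ± 10.2, 20.2% ± 1.39, 17.9% ± 1.51 and 43.8% ± 5.49 in the same order (SD, n = 3). Plin4 was therefore the largest perilipin share on average in CKO_GFP and CKO_K209A, and Plin5 in the other groups. In CKO_GFP replicate 1 Plin5 still led. The summed FPKM of the 4 genes was 154 ± 1.72 in ff_GFP, 113 ± 31.2 in CKO_GFP, 118 ± 8.55 with NAT10, 126 ± 14.8 with G641E and 89.1 ± 6.11 with K209A (SD, n = 3, no test made), and the CKO_GFP libraries, from 76.7 to 131, overlapped those of both rescue groups.

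**Figure D1:**
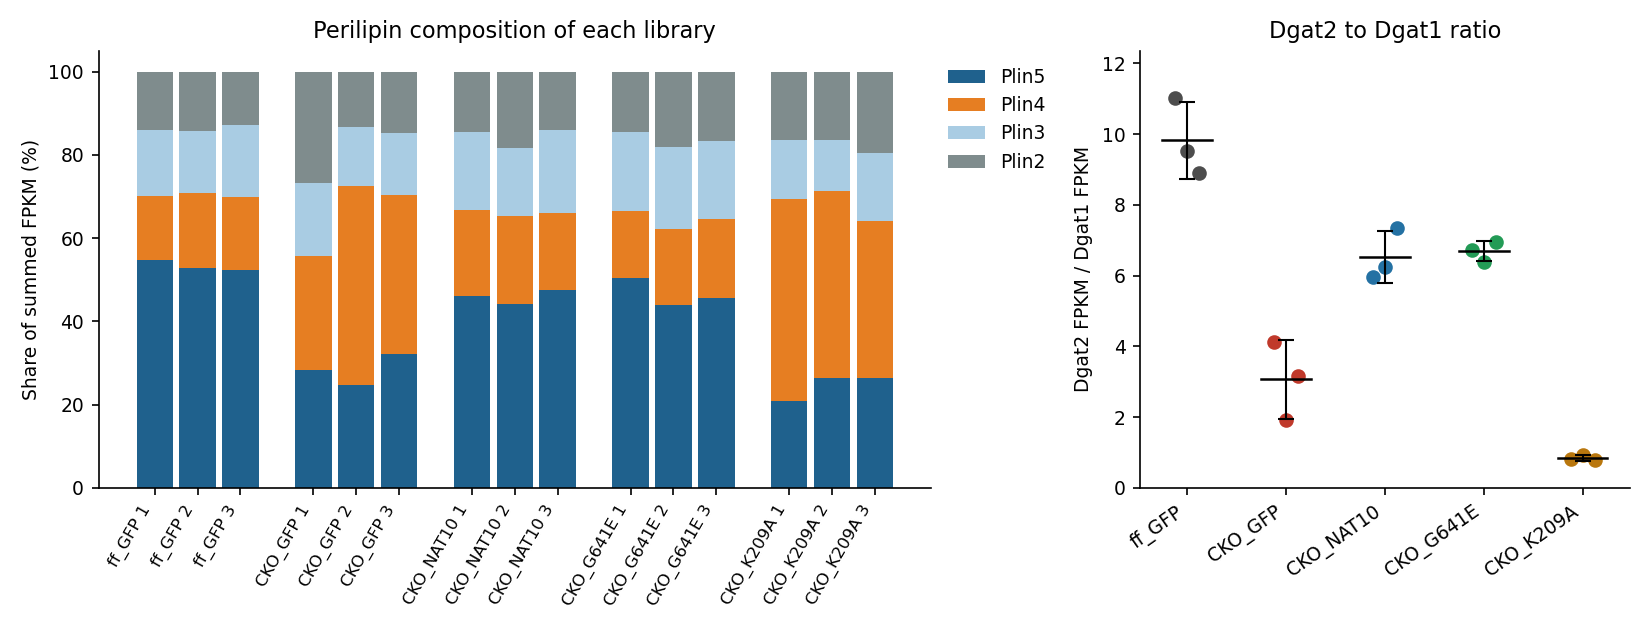
Left, each bar is 1 library and its colours give the share (%) of Plin5, Plin4, Plin3 and Plin2 in their summed FPKM, with the number after the group name giving the replicate. Right, points are the ratio of Dgat2 to Dgat1 FPKM in each library, with the group mean and SD (n = 3). The Plin5 share is near 53.3% in ff_GFP and 24.5% in CKO_K209A, and the Dgat2 to Dgat1 ratio falls below 1 in CKO_K209A alone.

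Cidea, which encodes a protein that moves lipid between droplets (chr18:67343564-67367794, plus strand, ENSMUSG00000024526), is best known from brown fat. The control ff_GFP read 36.6, 30.9 and 33.4 FPKM and CKO_GFP 17.7, 19.8 and 24.0. With NAT10 it was 26.3, 26.2 and 26.2 FPKM, with G641E 30.8, 23.4 and 30.6, and with K209A 7.92, 11.4 and 12.4. The CKO_K209A libraries lay below every other library, and those of ff_GFP above every other. Adipoq, Plin1, Ucp1 and Cfd, defining genes of fat cells, belong to the marker sum of at most 0.354 FPKM. Cidea overlaps the transcript model B430212C06Rik, on the other strand, by 540 bases. Cidec, which encodes the related protein of white fat and liver (chr6:113424634-113435760, minus strand, ENSMUSG00000030278), had no read in 14 libraries and 2 reads in CKO_NAT10 replicate 3, at 0.0833 FPKM. A count of 0 allows up to 3 counts, which is 0.0949 to 0.125 FPKM depending on the library, with counting error alone covered.

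**Figure D2:**
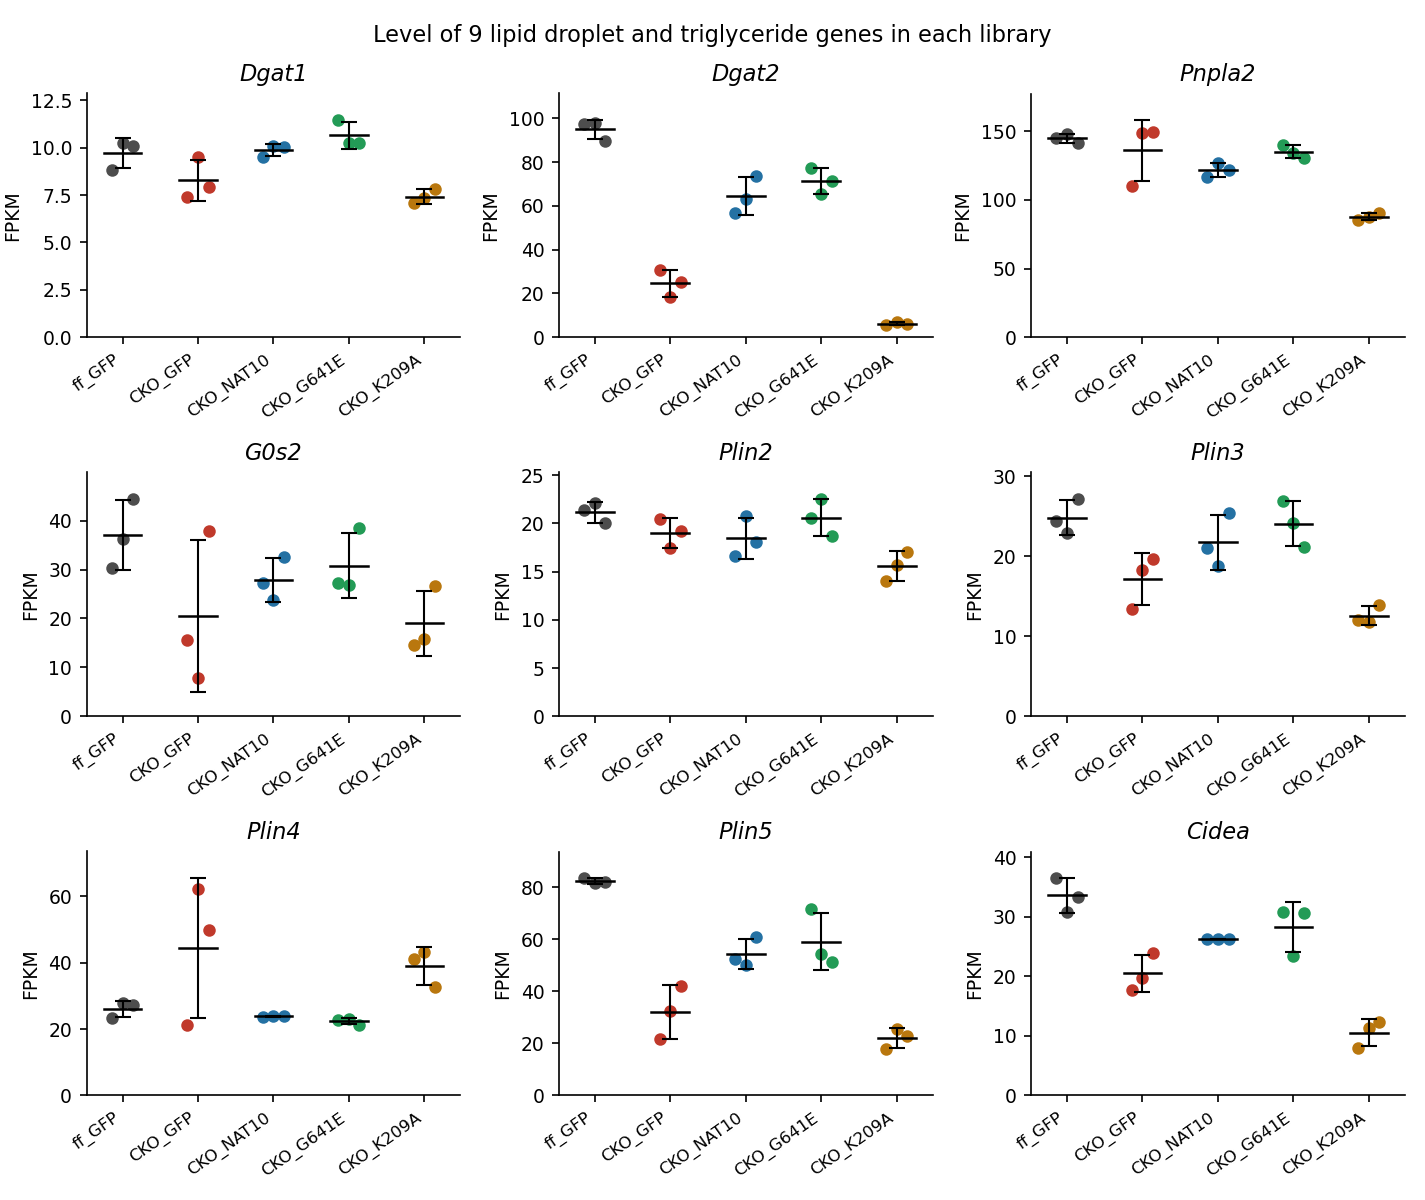
Each panel gives 1 gene on its own linear axis in FPKM from 0. Points are the 3 libraries of a group, the long bar is their mean and the error bar their SD. Dgat2 falls from 94.9 FPKM in ff_GFP to 6.23 in CKO_K209A, whereas Plin2 stays between 15.6 and 21.2 in all group means and Plin4 has 1 low library, replicate 1, in CKO_GFP.

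Loss of Nat10 was the question of CKO_GFP against ff_GFP, and 5 of the 9 tested members fell while 0 rose. Dgat2 fell by 1.95 on the log2 scale (SE 0.15, limma adjusted p = 7.16e-07), which is 3.87-fold. Plin5 fell by 1.40 (SE 0.20, limma adjusted p = 0.000115), Cidea by 0.71 (SE 0.16, limma adjusted p = 0.00280) and Plin3 by 0.54 (SE 0.15, limma adjusted p = 0.0105). G0s2 fell by 1.10 (SE 0.41, limma adjusted p = 0.0480). Plin4 was at 0.63 (adjusted p = 0.0901), Dgat1 at -0.22 (0.0758), Plin2 at -0.15 (0.269) and Pnpla2 at -0.10 (0.437), none of them called. Of all tested genes 40.5% were called in this comparison and 20.8% were lower. The median log2 difference was -0.54 over the 9 members, and 0.979% of all genes had a lower value than Dgat2. Libraries of both groups stood without overlap for 4 members, Dgat2, Plin5, Cidea and Plin3, and for 46.5% of genes.

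The G0s2 call was the least stable. It ended without CKO_GFP replicate 1 (-1.05) or 2 (-0.58), or without ff_GFP replicate 1 (-1.23), 2 (-1.11) or 3 (-0.96), and with quantile normalization, voom or no scaling between libraries. Without CKO_GFP replicate 1, Plin4 was called higher (1.09), as it was with voom (0.78). Without that library 1 member rose and 4 fell, and the share of all genes called in that fit is not given here. Dgat1 was called lower without CKO_GFP replicate 2 (-0.32) or ff_GFP replicate 1 (-0.29). Without scaling the median of all genes moved by 0.12, genes were called higher in 27.3% and lower in 14.8%, and 1 member was higher (Plin4, 0.77) and 4 lower.

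The return of NAT10 was asked about by CKO_NAT10 against CKO_GFP, which shares its CKO_GFP libraries with the comparisons of G641E and K209A that follow. Dgat2 rose by 1.39 (SE 0.15, limma adjusted p = 3.34e-05), 2.62-fold, and Plin5 by 0.80 (SE 0.20, limma adjusted p = 0.00943), which made 2 members higher and 0 lower. Plin4 was at -0.75 (adjusted p = 0.0555), G0s2 at 0.70 (0.219), Cidea at 0.36 (0.0995), Plin3 at 0.34 (0.0946), Dgat1 at 0.25 (0.0622), Plin2 at -0.05 (0.782) and Pnpla2 at -0.15 (0.287), none called. Of all genes 31.2% were called, 15.1% higher. At an unadjusted p under 0.05 there were 6 members, and the share of all genes at that threshold is not given here. Without scaling (-0.77) and with voom (-0.78) Plin4 was called lower, and quantile normalization called Plin3 (0.41), Cidea (0.44) and Dgat1 (0.31) higher too. Without CKO_GFP replicate 1, Plin4 (-1.21) and Pnpla2 (-0.29) were called lower, making 4. In that fit 5856 genes were called in all, against 4776 with every library. Without CKO_GFP replicate 2 Dgat1 was called higher (0.34), and without replicate 3 so was G0s2 (1.28). The Plin5 call was lost when the 2 groups were fitted alone.

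With the G641E form, CKO_G641E against CKO_GFP, 5 members rose and 1 fell. Dgat2 rose by 1.54 (SE 0.15, limma adjusted p = 1.35e-05), 2.91-fold, and Plin5 by 0.91 (SE 0.20, limma adjusted p = 0.00448). Plin3 rose by 0.49 (adjusted p = 0.0222), Cidea by 0.45 (0.0419) and Dgat1 by 0.35 (0.0129), and Plin4 fell by 0.84 (0.0350). G0s2 was at 0.84 (0.141), Plin2 at 0.11 (0.450) and Pnpla2 at 0.00 (0.994), not called. Of all genes 31.3% were called, 15.4% higher and 15.9% lower. The Dgat2 and Plin5 calls held without each library in turn, and the others did not.

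Cidea was no longer called without CKO_GFP replicate 1 (0.36) or 2 (0.44) or CKO_G641E replicate 1 (0.39) or 3 (0.39). The Plin3 call ended without CKO_GFP replicate 1 (0.33) or CKO_G641E replicate 1 (0.41) or 2 (0.49), and that of Dgat1 without CKO_G641E replicate 1 (0.30). For Plin4 it ended without CKO_GFP replicate 2 (-0.53) or 3 (-0.69) or without CKO_G641E replicate 1 (-0.86), 2 (-0.86) or 3 (-0.81). G0s2 was called higher without CKO_GFP replicate 3 (1.41), and the 2 groups fitted alone called Dgat2 and no other member.

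With the K209A form no member rose. In CKO_K209A against CKO_GFP 3 members fell. Dgat2 fell by a further 1.88 (SE 0.15, limma adjusted p = 4.94e-05), 3.67-fold below a knockout that was itself 3.87-fold below the control. Cidea fell by 0.94 (SE 0.16, limma adjusted p = 0.00420) and Pnpla2, which had not been called in the knockout, by 0.61 (SE 0.10, limma adjusted p = 0.00361). Plin5 was at -0.50 (adjusted p = 0.150), Plin3 at -0.42 (0.104), Plin2 at -0.28 (0.114), Dgat1 at -0.15 (0.381), Plin4 at -0.06 (0.921) and G0s2 at 0.12 (0.891), none called. Of all genes 7.93% were called and 5.76% were lower, and 0.163% had a lower value than Dgat2. Libraries stood without overlap for 4 members and for 23.2% of genes.

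Among the 5 heart muscle markers in this comparison Tnni3 fell by 0.38 (limma adjusted p = 0.0112), and Tnnt2 (-0.28), Myh6 (-0.30), Actc1 (-0.02) and Ryr2 (-0.10) were not called. Without CKO_GFP replicate 1, Tnnt2 (-0.57, adjusted p = 0.00576) and Ryr2 (-0.40, 0.00942) were called lower beside Tnni3 (-0.34), and Actc1 stood at 0.32. The Tnni3 call ended without scaling (-0.26, adjusted p = 0.0587), with quantile normalization (-0.05, 0.747) and with the 2 groups alone. The part of these markers in the fall of the members was not tested. The Dgat2 difference ran from -2.07 to -1.71 when each library was left out. With the 2 groups fitted alone, 0 members and 9 genes in all were called, with Dgat2 at adjusted p = 0.0524. Without CKO_GFP replicate 1, Plin3 (-0.58), Plin4 (-0.52) and Plin5 (-0.75) were called lower too, making 6. In that fit 1650 genes were called in all, against 1215 with every library. Without scaling 6.38% of all genes were higher and 3.13% lower, in place of 2.17% and 5.76%, and 0 members were higher and 3 lower.

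**Figure D3:**
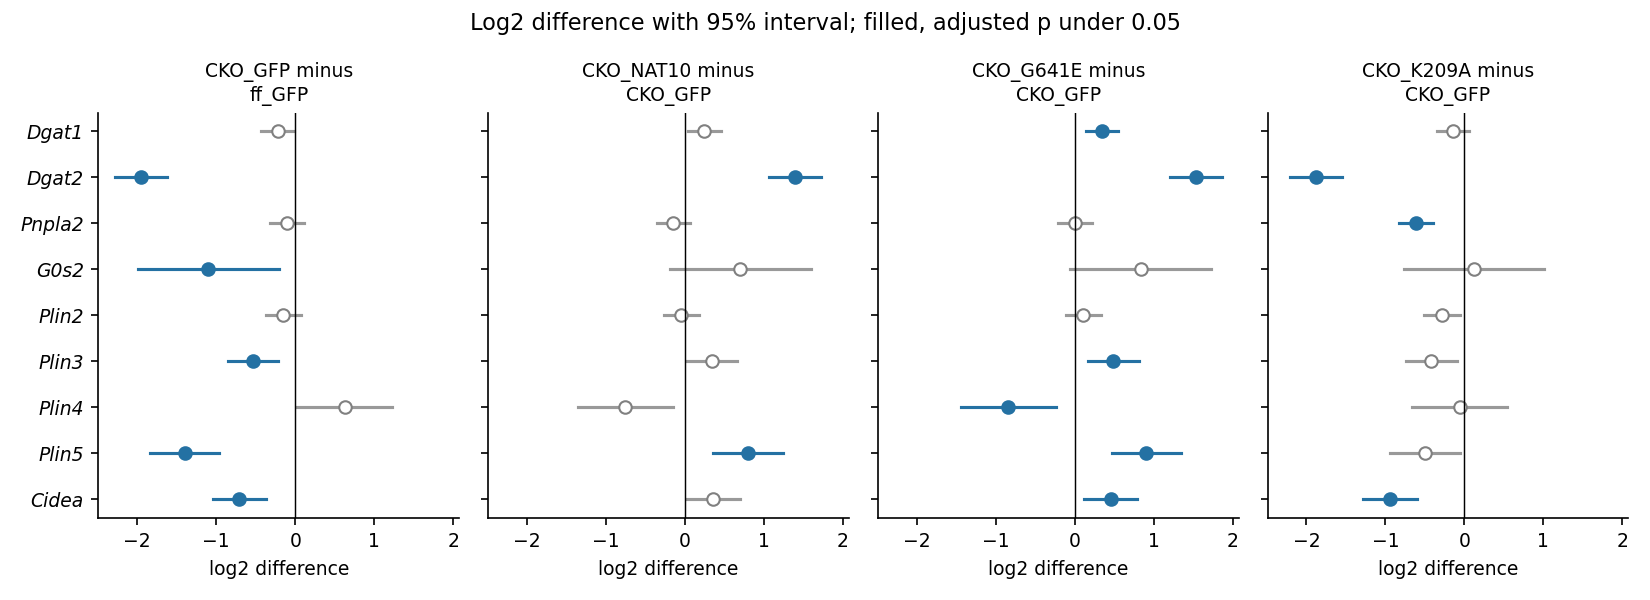
Log2 difference in FPKM + 0.5 with its 95% interval for 9 genes in 4 comparisons, named above each panel. Filled points have a limma adjusted p under 0.05 over all tested genes and open points do not. Dgat2 is at -1.95, 1.39, 1.54 and -1.88 from left to right.

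Set directly against each other, CKO_G641E and CKO_NAT10 showed no called member, with 0.0522% of all genes called. Limma gave 0 members also at an unadjusted p under 0.05, with no share of all genes given at that threshold, and voom gave 0. Differences ran from -0.09 for Plin4 to 0.16 for Plin2. That of Dgat2 was 0.15 with a 95% interval of -0.18 to 0.48, that of Plin5 0.10 with -0.33 to 0.54, and that of G0s2 0.13 with -0.75 to 1.02. Equal levels were not shown, since differences within those intervals remain possible.

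CKO_K209A differed from both. Against CKO_NAT10 6 members fell, where 41.5% of all genes were called and 21.2% were lower. Dgat2 fell by 3.27 (SE 0.15, limma adjusted p = 2.10e-08), 9.62-fold, Plin5 by 1.30 (0.000208), Cidea by 1.30 (2.51e-05), Plin3 by 0.76 (0.00108), Pnpla2 by 0.47 (0.00187) and Dgat1 by 0.39 (0.00466). Plin4 was at 0.69 (adjusted p = 0.0625), Plin2 at -0.24 (0.0840) and G0s2 at -0.58 (0.283). Plin4 was called higher without scaling (0.83), with quantile normalization (0.72), with voom (0.84) and with the 2 groups alone, and Plin2 was called lower without CKO_NAT10 replicate 1 (-0.31). Without scaling, which shifted the all-gene median by 0.105, 28% of genes were higher and 16% lower.

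Against CKO_G641E 7 members fell and Plin4 rose, where 40.8% of all genes were called, 19.6% higher and 21.2% lower. Dgat2 fell by 3.41 (limma adjusted p = 1.19e-08), Plin5 by 1.41, Cidea by 1.39, Plin3 by 0.91, Pnpla2 by 0.62, Dgat1 by 0.49 and Plin2 by 0.39 (0.00816). Plin4 rose by 0.78 (adjusted p = 0.0385), and G0s2 was at -0.72 (0.186). The Plin4 call ended without CKO_G641E replicate 1 (0.80), 2 (0.80) or 3 (0.75) or CKO_K209A replicate 1 (0.74) or 2 (0.70), and that of Plin2 without scaling (-0.23) or with voom (-0.23). Without scaling, which shifted the all-gene median by 0.132, 29.5% of genes were higher and 15.4% lower.

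The distance from the control was also measured for each rescue group, and these comparisons share the ff_GFP libraries. CKO_NAT10 had 0 called members against ff_GFP by limma and 0 by voom, with 2.47% of all genes called. At an unadjusted p under 0.05 there were 4, Plin5 (-0.60), Dgat2 (-0.56, adjusted p = 0.0767), Cidea (-0.35) and Pnpla2 (-0.25). CKO_G641E had 0 called members by limma and 0 by voom, with 1.79% of genes called, and 2 at an unadjusted p under 0.05, Plin5 (-0.49) and Dgat2 (-0.41, adjusted p = 0.204). No share of all genes at the unadjusted threshold is given for these counts. Without scaling between libraries 1.32% of genes were higher and 0.542% lower in CKO_NAT10 (0.79% and 1.68% with it), and 0.999% and 0.529% in CKO_G641E (0.627% and 1.16% with it), with 0 members called in either. Fitted alone, the 2 groups called Plin5 lower in CKO_NAT10 and Dgat2 lower in CKO_G641E.

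CKO_K209A fell below ff_GFP in 7 members, where 47.7% of all genes were called and 24.5% were lower. Dgat2 fell by 3.83 (SE 0.15, limma adjusted p = 1.28e-09), 14.2-fold, and 0.131% of genes had a lower value. Plin5 fell by 1.90 (5.25e-06), Cidea by 1.65 (1.78e-06), Plin3 by 0.95 (0.000131), Pnpla2 by 0.72 (4.72e-05), Plin2 by 0.43 (0.00359) and Dgat1 by 0.37 (0.00568). G0s2 was at -0.98 (adjusted p = 0.0664) and Plin4 at 0.57 (0.112). On the deposited FPKM, which carry a scaling between libraries, the groups stood without overlap for all 9 tested members and for 59.5% of genes. Overlap without that scaling was not examined. Dgat1 and Plin2 lost their calls without scaling (-0.12 and -0.18), which shifted the all-gene median by 0.21 and left 36.7% of genes higher and 16.3% lower, and with voom, and under both Plin4 was called higher (0.82 and 0.84). Without CKO_K209A replicate 3 G0s2 was called lower (-1.24).

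Other genes of the same pathways were counted in lists, beside 20.8% of all tested genes that fell and 19.8% that rose in CKO_GFP against ff_GFP, and 7.93% called in CKO_K209A against CKO_GFP. Without CKO_GFP replicate 1 the last comparison called 1650 genes in all, against 1215 with every library. Of 10 tested genes of droplet coat and assembly, 3 fell and 2 rose in CKO_GFP against ff_GFP (median -0.04), shares near those of all genes. Fitm1 and Fitm2, whose products move new triglyceride from the endoplasmic reticulum into droplets, fell by 2.39 (adjusted p = 1.48e-05) and 1.58 (4.02e-07). Fitm1 means were 106 ± 10.97 FPKM for ff_GFP, 21.8 ± 12.5 for CKO_GFP, 67.6 ± 11.7 with NAT10, 78.6 ± 4.56 with G641E and 13.1 ± 2.08 with K209A (SD, n = 3). In CKO_K209A against CKO_GFP 1 fell, Fitm2 (-0.56), and 1 rose, Acsl3 (0.48), a call that ended without CKO_GFP replicate 1 (0.40) or 2 (0.46) or without CKO_K209A replicate 1 (0.52), 2 (0.45) or 3 (0.49). The knockout counts were 2 lower and 3 higher without CKO_GFP replicate 1, with the share of all genes in that fit not given. Spg20, which encodes spartin, a protein of droplet turnover, rose by 0.47 (0.00273).

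Of 12 tested genes of triglyceride synthesis ahead of the DGAT step, 6 fell and 1 rose in the knockout (median -0.19). Gpat3 and Gpam, which encode acyltransferases of the first step, fell by 1.23 (adjusted p = 0.000288) and 1.01 (6.65e-05), and Agpat3, of the second step, by 1.10 (4.34e-06). Gpam measured 46.4 ± 4.22 FPKM in ff_GFP, 23.0 ± 4.63 in CKO_GFP and 18.5 ± 1.74 in CKO_K209A (SD, n = 3). In CKO_K209A against CKO_GFP 1 of the 12 was called, a share near that of all genes. It was Agpat2, at -0.35 (adjusted p = 0.0449), a call that ended without scaling (-0.24) and without either of CKO_GFP replicates 2 (-0.33) and 3 (-0.29) or CKO_K209A replicates 1 (-0.28) and 2 (-0.36). The count was 2 without CKO_GFP replicate 1, with Agpat3 called lower (-0.43, adjusted p = 0.0225).

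Of 8 genes of lipolysis and droplet turnover, 4 fell and 1 rose in the knockout (median -0.36), and 0 were called in CKO_K209A against CKO_GFP. Pnpla3, a paralogue of Pnpla2 known in liver for droplet remodelling, fell by 3.06 (adjusted p = 6.09e-07), from 6.37 ± 0.541 to 0.346 ± 0.229 FPKM (SD, n = 3), and Mgll, which encodes the lipase of the last step, by 0.53 (0.000157). Ces1d, which encodes a triglyceride hydrolase, measured 2.30 ± 0.550 FPKM in ff_GFP (SD, n = 3) and was listed at 0 in all 3 libraries of CKO_GFP and all 3 of CKO_K209A. It belongs to a family of close copies, between which reads may be split.

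Of 9 tested genes of triglyceride supply and export, 5 fell and 1 rose in the knockout (median -0.55). Slc27a1, which encodes a fatty acid transport protein, fell by 1.78 (adjusted p = 6.17e-06), Vldlr, the very low density lipoprotein receptor gene, by 0.70 (0.000102) and Lmf1, which encodes the lipase maturation factor, by 0.69 (0.00058). In CKO_K209A against CKO_GFP 1 of 9 was called, Fabp3, at -0.49 (0.0116), a call that ended without CKO_K209A replicate 1 (-0.45) and with quantile normalization (-0.06). The count was 2 without CKO_GFP replicate 1.

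PPAR alpha, a nuclear receptor, drives many genes of fatty acid use in heart. Of 20 such target genes, 18 fell in CKO_GFP against ff_GFP (median -1.23), beside 20.8% of all genes. Against CKO_GFP, 16 rose in CKO_NAT10 and 17 in CKO_G641E, beside 15.1% and 15.4% of all genes. In CKO_K209A against CKO_GFP 8 fell (median -0.40), beside 5.76% of all genes. The smallest p-values in the knockout were those of Cpt2 (-1.94, adjusted p = 1.61e-08), Acadm (-1.62, 6.85e-08) and Hadhb (-1.35, 1.11e-07), which encode enzymes of fatty acid import and oxidation in mitochondria. Cpt2 measured 119 ± 6.05 FPKM in ff_GFP, 30.7 ± 1.67 in CKO_GFP and 18.8 ± 0.802 in CKO_K209A (SD, n = 3). Without CKO_GFP replicate 1 the counts were 17, 15, 17 and 9. In that fit 5856 genes were called in all in CKO_NAT10 against CKO_GFP (4776 with every library). In CKO_K209A against CKO_GFP they were 1650 (1215 with every library). Those of the knockout and of CKO_G641E in that fit are not given here. Without scaling, 5 fell and 1 rose in CKO_K209A against CKO_GFP, beside 3.13% of all genes lower and 6.38% higher. Over 11 other settings, with no share of all genes given, that comparison had 0 to 10 lower and 0 to 2 higher. Cpt2, Acadm and Hadhb lost their calls there with the 2 groups fitted alone. Of the 7 regulators themselves, 1 fell in the knockout, Ppargc1b, a coactivator gene (-0.55, adjusted p = 0.0445), and 0 were called in CKO_K209A against CKO_GFP. In CKO_K209A against ff_GFP 4 of the 7 fell, beside 24.5% of all genes, and as few as 0 did in other settings. The Ppargc1b call in the knockout ended without ff_GFP replicate 1 (-0.35) or 3 (-0.60) or CKO_GFP replicate 2 (-0.40) or 3 (-0.59). Ppara was at -0.47 (0.0664), and was called lower without ff_GFP replicate 2 (-0.62) or CKO_GFP replicate 3 (-0.64). Ppard was at -0.24 (0.0681), and was called lower without CKO_GFP replicate 1 (-0.31, limma adjusted p = 0.0217) or ff_GFP replicate 2 (-0.31). Against CKO_GFP, Ppara rose by 0.56 in CKO_NAT10 (limma adjusted p = 0.0398), the 1 regulator called there, and 0 were called in CKO_G641E. That Ppara call ended without any single CKO_NAT10 library, or without CKO_GFP replicate 1 (0.33) or 2 (0.61).

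**Figure D4:**
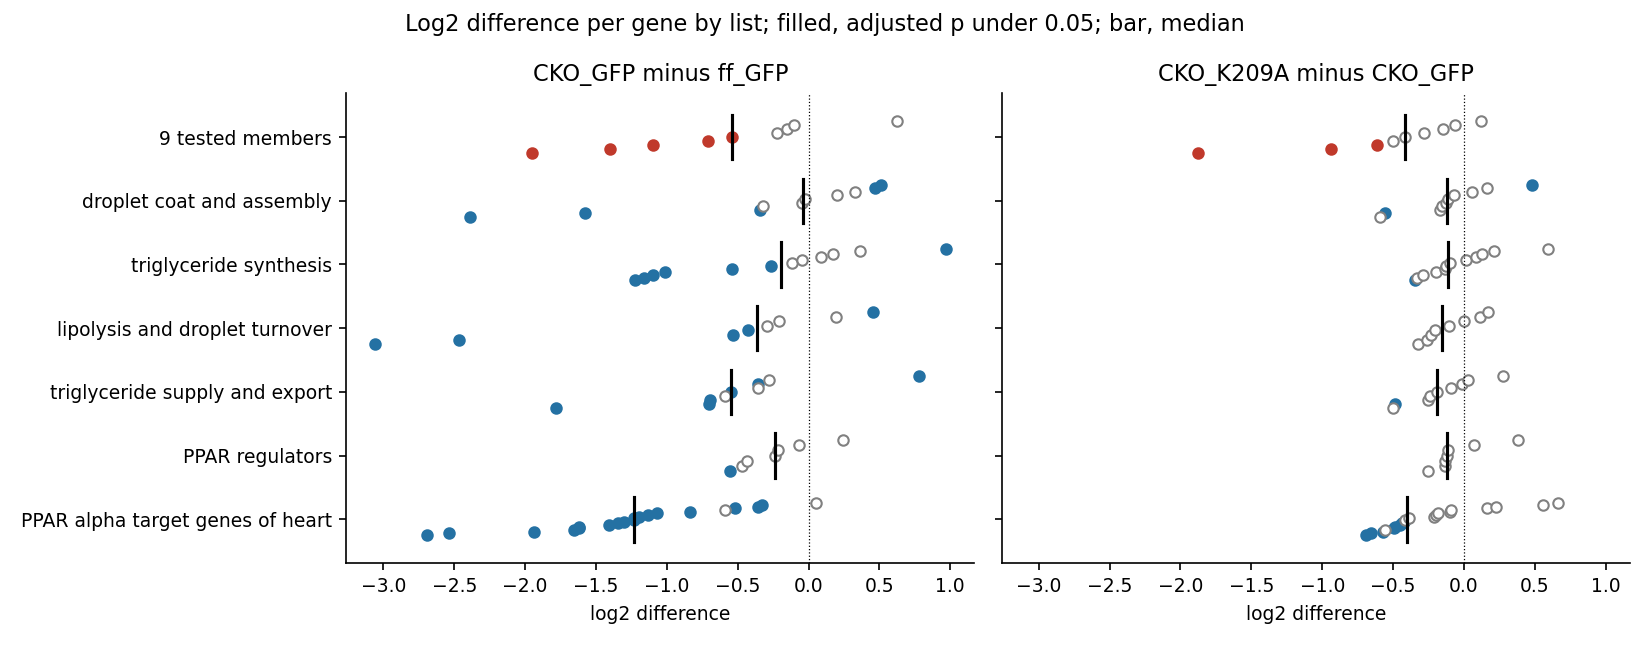
Log2 difference in FPKM + 0.5 of each tested gene by list, in CKO_GFP against ff_GFP on the left and CKO_K209A against CKO_GFP on the right. Filled points have a limma adjusted p under 0.05, and vertical bars are medians, at -0.54 and -0.42 for the 9 members and -1.23 and -0.40 for the PPAR alpha target genes.

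The genes whose pattern over the 15 libraries lay nearest to that of each member were ranked by the root-mean-square difference of centred log2 values, among 12178 protein-coding genes. Nearest to Dgat2 were Coq8a (0.174), Myh14 (0.262) and Fsd2 (0.282), where the median of all genes was 1.43. Coq8a, which encodes a kinase-like protein of coenzyme Q synthesis, measured 112 ± 8.04 FPKM in ff_GFP, 24.0 ± 3.68 in CKO_GFP and 6.74 ± 0.289 in CKO_K209A (SD, n = 3). Nearest to Plin5 were Mlycd (0.173), which encodes malonyl-CoA decarboxylase, Dhrs11 (0.183) and Slc25a34 (0.186), against a median of 0.749. For Cidea they were Dynll2 (0.115), Isoc2a (0.154) and Cox6a2 (0.155), a heart and muscle subunit of cytochrome c oxidase, against 0.636. Near to Plin4 were Cyp2d22 (0.129) and Ifngr1 (0.162), against 0.525.

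Pnpla2 lay nearest to the respiratory chain genes Uqcr10 (0.0904) and Ndufb9 (0.0961) and the mitochondrial ribosome gene Mrpl43 (0.109). Plin3 lay nearest to Mpst (0.123), Hmox2 (0.125) and Fam234a (0.126), and Plin2 to Snx19 (0.1), Mapre3 (0.104) and Ensa (0.104). Near to Dgat1 were Tcn2 (0.0987) and Aplp2 (0.105). Nearest to G0s2 were Sema4b (0.305), Tbx5 (0.313) and Rcor2 (0.322), against a median of 0.667. The medians were 0.365 for Pnpla2, 0.452 for Plin3, 0.303 for Plin2 and 0.314 for Dgat1.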

How the data were processed

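Per the labels, 15 whole-heart libraries of poly-A RNA (5 groups of 3) were read from both ends over 150 bases. HISAT2 2.0.5, featureCounts 1.5.0-p3, DESeq2 1.20.0 and CASAVA, with the builds GRCm38 and mm10, are named in the submitters' processing notes, which give no order or role. The authors deposited FPKM values of 54532 genes beside gene lengths per the file headers, and how FPKM were computed is not given in the sources used here. FPKM multiplied by length gave whole reads in 100% of values, within 0.05 reads. The library sizes behind the FPKM were 0.908 to 1.13 times the recovered sums of reads, so the deposited values carry a scaling between libraries. The ratio was lowest in ff_GFP (0.908, 0.933 and 0.929) and highest in CKO_K209A (1.08, 1.11 and 1.13). The scaling thus went with the group, and a larger ratio lowers every FPKM of its library. Mitochondrial genes held 18.7%, 18.9% and 17.5% of reads in ff_GFP and 15.7%, 13.3% and 12.2% in CKO_K209A. No sample column was left unused.

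Tests used limma 3.58.1 in R 4.3.3 on log2(FPKM + 0.5), which understates changes of low genes, after a filter that kept a gene once 3 libraries reached 0.5 FPKM. All 5 groups entered 1 model with 10 residual degrees of freedom and a variance trend, and p-values were adjusted by Benjamini-Hochberg over all tested genes in each of 10 comparisons, 6 of them the main ones. The median SE of a log2 difference was 0.148. The procedure was tested on simulated data. Of simulated 1.5-fold changes it called 47.8% in CKO_GFP minus ff_GFP and 41.8% in CKO_K209A minus CKO_GFP. Of 2-fold changes it called 76.1% and 74.6%, and of 4-fold changes 98.5% and 97%. A member not called may therefore still differ by such smaller amounts. Alternatives were other pseudocounts, no filter, quantile normalization, no scaling, voom on recovered reads, pairs of groups fitted alone, a replicate term and leaving out each library.

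The 10 members and the lists were chosen with earlier results of these data known, so their counts are descriptions. The text names every member, from each list the 3 genes lowest in adjusted p in CKO_GFP against ff_GFP, and the 3 genes of nearest pattern to each member, of which 1 for Plin4 and 1 for Dgat1 are not reported here. List genes called in CKO_K209A against CKO_GFP, markers not called, and Lrg1, were named after their values were seen. Promoter windows and their sequences are those of RefSeq for GRCm38.p6, matched by symbol for 7 of 10 members, not Dgat1, Dgat2 or Cidea. Entries on chromosome 18, where Cidea lies, were not used for members, and the share over all windows did not leave them out.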

Additional observations from a re-analysis of the deposited data

How the results depend on the processing

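No call reversed direction. Over settings other than leaving out a library, 272 of 296 values of called members kept their call and 24 lost it, while 20 of 424 uncalled values gained one. Leaving out 1 library at a time, 199 of 222 called values kept their call and 23 lost it, and 13 of 318 uncalled values gained one. Quantile normalization called 5 members (4689 genes against 4776) in CKO_NAT10 minus CKO_GFP, where the model of all 5 groups called 2. Pairs of groups fitted alone called 1 member (2355 genes against 4776) in CKO_NAT10 minus CKO_GFP and 1 (2703 genes against 4793) in CKO_G641E minus CKO_GFP. They called 0 (9 genes against 1215) in CKO_K209A minus CKO_GFP, 1 (207 genes against 378) in CKO_NAT10 minus ff_GFP and 1 (394 genes against 274) in CKO_G641E minus ff_GFP. In CKO_K209A minus ff_GFP they called 9 members in place of 7, and the genes called in all there are not given. With single libraries left out the members called ran from 2 to 4 in CKO_NAT10 minus CKO_GFP, from 2 to 6 in CKO_G641E minus CKO_GFP and from 3 to 6 in CKO_K209A minus CKO_GFP. Genes called in all were 5856 at the highest count of the first, 3652 at the lowest of the second and 1650 at the highest of the third. The cause was not tested. A pairing of libraries by the replicate numbers of the labels was not evident, though this check cannot settle it with 3 libraries per group. Of 30 same-numbered pairs 3 correlated above 0.1 in their deviations from group means (range -0.15 to 0.364). Of 15 libraries 7 correlated best with their own number. Between CKO_G641E and CKO_NAT10 the pairs numbered 1, 2 and 3 correlated at 0.0883, 0.364 and 0.115, and the replicate block called 0 members there. With the number as a replicate block, 5, 2, 7 and 3 members were called in CKO_GFP minus ff_GFP and in CKO_NAT10, CKO_G641E and CKO_K209A minus CKO_GFP, and G0s2 gained a call in CKO_G641E minus CKO_GFP and in CKO_K209A minus ff_GFP. The genes called in all with that block are not given here. At these depths Cidec could not be measured.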

Other observations

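A further gene next to the perilipins stood out after its values were seen. Lrg1, which encodes a secreted leucine-rich glycoprotein, lies at chr17:56119678-56122001 (GRCm38), beyond Plin5. Its means were 23.9 ± 2.44 FPKM for ff_GFP, 4.28 ± 2.25 for CKO_GFP, 12.2 ± 1.68 with NAT10, 12.9 ± 3.43 with G641E and 2.56 ± 0.977 with K209A (SD, n = 3). It fell by 2.47 in CKO_GFP against ff_GFP (limma adjusted p = 3.86e-05). It rose by 1.52 in CKO_NAT10 (limma adjusted p = 0.00275) and by 1.57 in CKO_G641E (limma adjusted p = 0.00210) against CKO_GFP. In CKO_K209A against CKO_GFP it was at -0.57 (limma adjusted p = 0.289), and it was called lower there without CKO_GFP replicate 1 (-0.97). The other neighbour of Plin5, Plin4, read 26.1 ± 2.46 FPKM in ff_GFP and 44.5 ± 21.2 in CKO_GFP (SD, n = 3).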
